A study of Homo sapiens with 25 samples.

Results

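Translation initiation factors are the proteins that bring a ribosome, the initiator methionyl-tRNA and an mRNA together at a start codon. Their genes were taken here from an expression table of DND-41 cells. DND-41 is an established line from a human T-lineage acute leukaemia, and it was cultured here with the essential amino acid histidine reduced in steps. Members are the rows whose symbols start with EIF1 to EIF6. Of 89 such symbols, 28 pseudogene names, 5 antisense or divergent transcripts and 1 kinase gene were left out, which left 55 members of the 31919 genes in the table. Of these, 49 carry factor names of the EIF1 to EIF6 subfamilies, 3 encode kinases of eIF2 (EIF2AK genes) and 3 encode eIF4E-binding proteins (EIF4EBP genes). The filter on low values asked for 2 or more libraries with normalized counts of 10 or above. It was passed by 53 members, and EIF4E1B and EIF5A2 were not tested.

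Initiation begins when eIF2, with GTP and initiator tRNA, joins the small ribosomal subunit together with eIF1, eIF1A, eIF3 and eIF5. The eIF4 factors bind the mRNA cap and unwind the leader, the complex scans to a start codon, and eIF5 and eIF5B complete subunit joining. The pathway is known as a target of amino acid supply in 2 ways. Uncharged tRNA activates the kinase GCN2, encoded by EIF2AK4, which phosphorylates eIF2 alpha and so inhibits its exchange factor eIF2B. Low mTORC1 activity leaves the eIF4E-binding proteins unphosphorylated and able to block the cap-binding factor. Both switches act on proteins, and the libraries measure only mRNA.

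All 25 libraries are of the 1 cell line and differ in histidine level and in the day of collection. On day 6 there were 3 libraries with no histidine, 3 at 12.5%, 2 at 25%, 3 at 50% and 3 at 100%, the full amount. On day 9 there were 3 at 12.5%, 3 at 25%, 2 at 50% and 3 at 100%. Normalized counts added up to between 13574787 and 16097408 per library, with 14425 to 16263 genes at 10 or more, and the original read totals are not known. The T-lineage genes CD3D, CD3E, CD3G, CD7, CD1A, CD1E and LCK were present in every library, with CD3D between 4089 and 8457 normalized counts. Others of the T-lineage list were low, with CD5 between 70.6 and 154.6 and CD2 between 7.31 and 37.6. The pre-T-cell receptor gene PTCRA lay between 0 and 8.14. The epithelial genes EPCAM and CDH1 were at 0 in 17 libraries each and reached 20.8 and 64.0. In 6 libraries the epithelial keratins KRT8, KRT18 and KRT19 summed to more than 100 normalized counts, and to as much as 1406. These were 2 of 3 libraries at 50% and 2 of 3 at 100% on day 6, and 2 of 3 at 25% on day 9. Their part in the results was not tested, and counts of members and partner genes are given with and without them. Whether replicates came from separate cultures is not in the labels. The p-values therefore measure sample-to-sample spread, which may be technical. In bulk samples, fewer cells of a type and less RNA per cell cannot be told apart.

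Promoters of some of the members described below are shown first. EIF5, EIF2S1, EIF3I and EIF2B1 stand for members called in 1 direction at 12.5% on both days, and EIF1, EIF1B and EIF4A3 for those highest at 25% on day 6. They are examples picked after the values were seen. Each is the 150 bases before a transcript start given by RefSeq on GRCh38.p14, read on the gene's strand. Capitals mark the letters of the motifs CACGTG (E-box), TGATGNAA (a C/EBP-ATF response element), CCGGAAG (bound by ETS factors), CCAAT and GCCATNTT (YY1), searched on both strands. In EIF1 a forward and a reverse CCAAT overlap.
EIF5, chr14:103334087-103334236, plus strand: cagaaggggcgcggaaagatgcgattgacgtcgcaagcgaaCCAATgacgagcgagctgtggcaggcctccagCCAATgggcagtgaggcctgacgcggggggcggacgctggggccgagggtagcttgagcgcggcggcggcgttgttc
EIF2S1, chr14:67360178-67360327, plus strand: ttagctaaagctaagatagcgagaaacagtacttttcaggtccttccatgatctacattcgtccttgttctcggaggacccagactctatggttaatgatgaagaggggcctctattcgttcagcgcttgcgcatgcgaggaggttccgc
EIF3I, chr1:32222257-32222406, plus strand: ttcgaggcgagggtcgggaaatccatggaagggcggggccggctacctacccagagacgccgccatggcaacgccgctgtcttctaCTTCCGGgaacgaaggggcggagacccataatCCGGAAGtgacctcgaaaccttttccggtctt
EIF2B1, chr12:123633687-123633836, minus strand: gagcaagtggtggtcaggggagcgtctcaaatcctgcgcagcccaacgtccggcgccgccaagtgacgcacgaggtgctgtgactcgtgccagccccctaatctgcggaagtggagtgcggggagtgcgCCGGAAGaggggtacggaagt
EIF1, chr17:41688735-41688884, plus strand: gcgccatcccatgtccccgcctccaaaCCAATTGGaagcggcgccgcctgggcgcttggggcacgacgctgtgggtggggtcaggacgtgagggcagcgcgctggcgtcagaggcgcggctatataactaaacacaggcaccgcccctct
EIF1B, chr3:40309557-40309706, plus strand: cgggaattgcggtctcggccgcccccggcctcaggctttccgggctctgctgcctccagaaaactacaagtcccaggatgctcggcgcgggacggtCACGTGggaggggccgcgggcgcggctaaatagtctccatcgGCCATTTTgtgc
EIF4A3, chr17:80147129-80147278, minus strand: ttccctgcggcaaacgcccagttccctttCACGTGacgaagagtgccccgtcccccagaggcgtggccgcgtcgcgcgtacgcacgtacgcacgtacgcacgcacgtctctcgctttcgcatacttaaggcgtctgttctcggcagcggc

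RefSeq gave 59 promoter windows for 43 members. CACGTG stood in 13.6% of these windows and in 4.57% of all 35116 promoter windows of the same length. CCGGAAG stood in 16.9% and 6.85%, and CCAAT in 27.1% and 23.5%. The C/EBP-ATF element stood in 1.69% of members' windows, in EIF4E3 alone, and in 1.9% of all windows. The YY1 letters stood in 1.69% and 2.24%. Members' windows were also richer in G and C, with a median of 66.7% against 60.0% in all windows, and both CACGTG and CCGGAAG are made mostly of those letters. The EIF2S1 window holds none of these motifs. For EIF5 the window shown holds 2 copies of CCAAT, and its other window, chr14:103334738-103334887, holds none of the motifs.

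The first question was how many initiation factor mRNAs moved at each histidine level. Each level was compared with 100% of the same day by limma, on values of log2(normalized count + 1), with Benjamini-Hochberg adjustment over all 18799 tested genes and a threshold of 0.05. The comparisons of a day share its 100% libraries. Without histidine, 17 of the 53 tested members changed on day 6, 10 higher and 7 lower, where 29.8% of all tested genes changed (13.3% higher and 16.5% lower). At 12.5% on day 6, 8 members rose and 13 fell, against a background of 27.0% (11.7% higher and 15.3% lower). At 25% on day 6, 9 rose and 7 fell (background 13.7%, with 6.79% higher and 6.92% lower). On day 9, 6 members rose and 8 fell at 12.5% (background 20.8%, with 9.35% higher and 11.5% lower). At 25% on day 9, 8 rose and 12 fell (background 18.2%, with 9.4% higher and 8.76% lower). In each of these comparisons some members rose and others fell. The median log2 change over tested members was 0.05 without histidine, -0.12 at 12.5% and -0.01 at 25% on day 6, and -0.08 at 12.5% and -0.04 at 25% on day 9. The medians over all tested genes in the same order were 0.03, 0.04, 0.00, 0.03 and 0.00.

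At 50% histidine limma called 0 members on day 6, where it called 0% of all genes and 1 member had an unadjusted p under 0.05. It called 0 on day 9 as well, where it called 0.00532% of genes and 2 members had an unadjusted p under 0.05. Without the libraries high in keratin, which leaves 1 library at 100% on day 6 and 1 at 25% on day 9, the members called numbered 8 without histidine, 9 at 12.5% and 8 at 25% on day 6, and 11 at 12.5% and 9 at 25% on day 9. The shares of all tested genes called were then 17.6%, 13.5% and 4.97% on day 6 and 19.8% and 6.75% on day 9. Such a single library has no spread of its own and takes that of the other groups. Later counts by subfamily or list without the keratin-high libraries are to be read against the shares just given. EIF2S1, EIF3I, EIF4A2, EIF4A3, EIF4EBP2, EIF4G2, EIF4G3 and EIF5 were then still called without histidine. EIF1AD, EIF2AK2, EIF2D, EIF2S1, EIF3C, EIF4EBP1, EIF4G2, EIF4G3 and EIF5 were still called at 12.5% on day 6, and EIF1AD, EIF1B, EIF2AK2, EIF2B1, EIF2B4, EIF2S1, EIF3B and EIF3I at 25%. On day 9, EIF2AK1, EIF2D and EIF5B lost their calls at 12.5%, and EIF1, EIF1AD, EIF1B, EIF2B1, EIF2S1, EIF3B, EIF3C, EIF3I and EIF3L kept theirs at 25%. No library at 12.5% or 100% on day 9 was high in keratin, so the libraries compared at 12.5% were unchanged. Only the shared estimate of spread and the genes tested differed, and the log2 change of EIF2D stayed at -0.31.

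**Figure D1:**
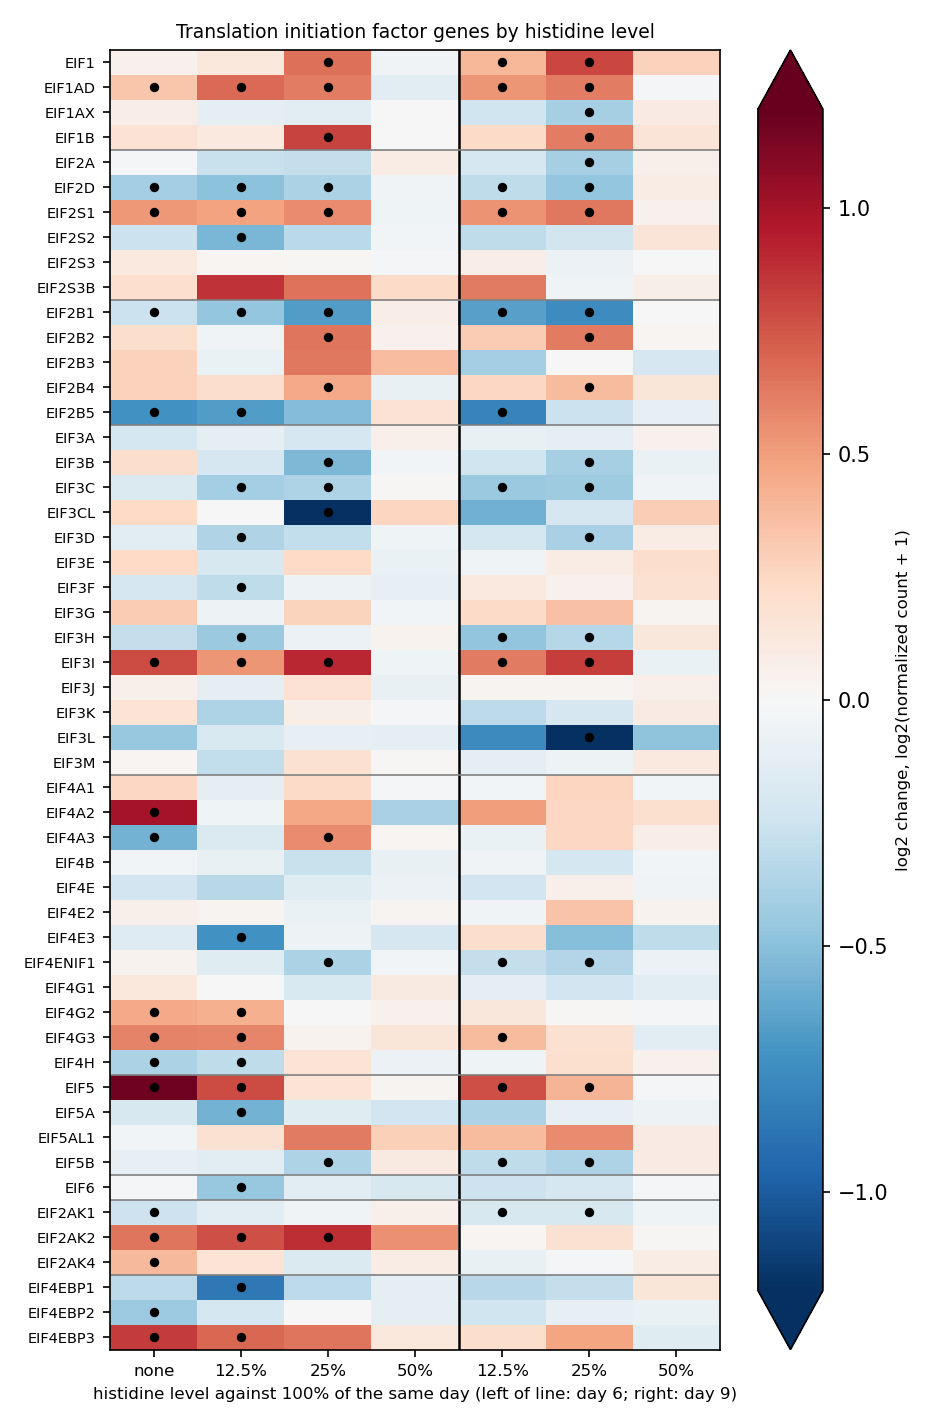
Log2 change of each initiation factor gene plotted (rows, by subfamily, grey lines between them) at each histidine level against 100% of the same day (columns), on the log2(normalized count + 1) scale, with dots where limma's adjusted p passed 0.05. Among called rises without histidine those of EIF5 and EIF4A2 are the largest, EIF1 and EIF1B rise at 25% on both days, and the columns at 50% hold no dot.

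Day 6 and day 9 have separate controls, so the calls of one level can be set side by side. At 12.5%, 21 members were called on day 6 and 14 on day 9, and 10 were called in the same direction on both, which is 47.6% of the day 6 list and 71.4% of the day 9 list. EIF1AD, EIF2S1, EIF3I, EIF4G3 and EIF5 rose on both days, and EIF2B1, EIF2B5, EIF2D, EIF3C and EIF3H fell on both. Over all tested genes the shares at 12.5% were 53.0% of the day 6 list and 68.7% of the day 9 list. At 25%, 13 members were called in the same direction on both days, 81.2% of the 16 on day 6 and 65.0% of the 20 on day 9. EIF1, EIF1AD, EIF1B, EIF2B2, EIF2B4, EIF2S1 and EIF3I rose, and EIF2B1, EIF2D, EIF3B, EIF3C, EIF4ENIF1 and EIF5B fell. Over all tested genes the shares at 25% were 73.4% and 55.4%. None of the members was called in opposite directions on the 2 days. Of all 18799 tested genes, 8 were at 12.5% and 2 at 25%. Tests of the difference between days called 0 members at 12.5%, where 0.0638% of all genes were called (0.0426% higher and 0.0213% lower) and 6 members had an unadjusted p under 0.05. They called 0 at 25%, where 0.00532% of all genes were called and 3 members had an unadjusted p under 0.05.

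The EIF1 group holds the factors of start-codon choice. EIF1 and EIF1B encode near-identical proteins that keep the scanning ribosome open until a good start codon is met, and EIF1AX encodes eIF1A. EIF1AD encodes a protein with an eIF1A-like domain that works in maturation of the small subunit. Without histidine 1 of the 5 tested members rose (20.0%, against 29.8% of all genes called), at 12.5% on day 6 1 rose (20.0%, background 27.0%) and at 25% 3 rose (60.0%, background 13.7%). On day 9, 2 rose at 12.5% (40.0%, background 20.8%), and 3 rose and 1 fell at 25% (80.0%, background 18.2%). With the keratin-high libraries left out, the 3 groups of day 6 had 0, 1 and 2 rises, and day 9 had 2 at 12.5% and 3 rises with 0 falls at 25%.

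EIF1 mRNA was highest at 25% histidine on both days. On day 6 it had 9805, 11551 and 11204 normalized counts without histidine, 9653, 11505 and 13438 at 12.5%, 17617 and 15678 at 25%, 10631, 11810.2 and 8400.3 at 50% and 10321, 10430.1 and 10691 at 100%. Both 25% libraries stood above every other library of day 6, and the other levels overlapped. The log2 change at 25% was 0.67 ± 0.13 (SE, adjusted p = 0.0014), against 0.05 without histidine (adjusted p = 0.815). Without the keratin-high libraries it was 0.64 with adjusted p = 0.0511. On day 9 EIF1 had 16516, 14531 and 13763 normalized counts at 12.5%, 20652, 19215 and 19130.5 at 25%, 14900.0 and 12590.1 at 50% and 12045, 10349.7 and 11569 at 100%. The day 9 change was 0.80 ± 0.12 at 25% (SE, adjusted p = 4.04e-05) and 0.40 ± 0.12 at 12.5% (SE, adjusted p = 0.0191). Leaving out 12.5% replicate 1 or 100% replicate 2 took the 12.5% value to between 0.32 and 0.34, with adjusted p of 0.0945 to 0.0986.

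EIF1B was also highest at 25% on both days. On day 6 its normalized counts were 789.9, 778 and 894 without histidine, 697, 754 and 929 at 12.5%, 1265 and 1288 at 25%, 669, 904 and 644 at 50% and 702, 749 and 733 at 100%. It rose at 25% by 0.81 ± 0.13 on the log2 scale on day 6 and by 0.61 ± 0.11 on day 9 (SE, adjusted p = 0.000116 and 0.000413). The libraries at 25% did not overlap those at 100% on either day. On day 9 its normalized counts were 1023, 932 and 1020.0 at 12.5%, 1267, 1275 and 1351 at 25%, 1028 and 865 at 50% and 858, 862 and 823 at 100%.

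Whether 12.5% and 25% differed was tested directly, a comparison added after the values were seen. On day 6, 5 members were higher and 9 lower at 12.5% than at 25%, where 17.8% of all genes were called (7.08% higher and 10.7% lower). EIF1B was lower at 12.5% by a log2 change of -0.70 ± 0.13 (SE, adjusted p = 0.00065), and EIF1 by -0.54 ± 0.13 (SE, adjusted p = 0.00709). The EIF1 call ended without 12.5% replicate 1 or 25% replicate 2 (-0.46 to -0.42, adjusted p = 0.0522 to 0.11). On day 9 only EIF5 (higher), EIF1 and EIF1B (both lower) were called, where 6.82% of all genes were (2.4% higher and 4.42% lower). The log2 changes of EIF1 and EIF1B on day 9 were -0.40 and -0.39 (adjusted p = 0.0446 and 0.0403), and leaving out any library of those 2 groups other than 12.5% replicate 1, or for EIF1B any at all, ended the call.

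EIF1AD rose in 5 comparisons. Its normalized counts on day 6 were 921, 974 and 926 without histidine, 1085, 1247 and 1250.3 at 12.5%, 1265 and 1024 at 25% and 794, 689 and 752 at 100%. Every library at 25% or less stood above all at 100%. The log2 change was 0.68 ± 0.10 at 12.5% and 0.61 ± 0.11 at 25% (SE, adjusted p = 2.97e-05 and 0.000647), and on day 9 it was 0.53 and 0.62 (adjusted p = 0.000562 and 0.000121). Without histidine it was 0.34 (adjusted p = 0.0138), which was lower than at 12.5% by -0.34 (adjusted p = 0.0237). The call of none against 100% ended without no-histidine replicate 2 or 100% replicate 2 (adjusted p = 0.0511 to 0.0726), and that against 12.5% without replicate 1 or 3 without histidine or replicate 2 or 3 at 12.5% (0.0524 to 0.0968). EIF1AX fell at 25% on day 9 alone among these comparisons (-0.40, adjusted p = 0.0167), a call that ended without 25% replicate 2 or 100% replicate 2 or 3 (adjusted p = 0.0645 to 0.0896).

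Among the EIF2 genes, EIF2S1 stood apart from its partners. EIF2S1 encodes the alpha subunit of eIF2, the one that carries the regulated serine, while EIF2S2 and EIF2S3 encode the beta and gamma subunits. On day 6 EIF2S1 had 1799, 1848 and 1864 normalized counts without histidine, 1636, 1845 and 1889 at 12.5%, 1832 and 1957 at 25%, 1254, 1396 and 1068 at 50% and 1372, 1208 and 1255 at 100%. At day 9 EIF2S1 had 2059.9, 1985 and 2048 at 12.5%, 2025, 2276 and 2210.0 at 25%, 1531 and 1375 at 50% and 1301, 1466 and 1438 at 100%. On both days every library at 25% or less lay above every one at 50% or 100%. The tests of none against 12.5% and of 12.5% against 25% made no call of it.

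The log2 changes of EIF2S1 were 0.52 without histidine, 0.48 at 12.5% and 0.57 at 25% on day 6, and 0.54 and 0.63 on day 9. Their SE was 0.0904, or 0.101 for 25% on day 6, and the adjusted p ran from 2.29e-05 to 0.00042. No library left out and no other setting ended any of these calls. EIF2S2 fell at 12.5% on day 6, with 2369, 2595 and 2692 normalized counts against 4196, 3521 and 3479 at 100% (log2 change -0.54 ± 0.12 SE, adjusted p = 0.00115). Once the keratin-high libraries were left out it was -0.45 with adjusted p = 0.0671. EIF2S3 was called in no comparison. Its near-identical copy EIF2S3B stayed at or under 11.8 normalized counts, and reads of the 2 genes may have been shared between them.

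EIF2D, which can deliver initiator tRNA without GTP and acts in reinitiation, fell in all 5 comparisons at 25% or less. It had 1028, 1262 and 1247 normalized counts without histidine and 999.9, 1038 and 1312 at 12.5%, against 1558, 1543 and 1577 at 100% on day 6. The log2 changes were -0.41 ± 0.10 and -0.49 ± 0.10 (SE, adjusted p = 0.0037 and 0.000974), and no library overlapped the controls. The call without histidine ended when the keratin-high libraries were left out (-0.43, adjusted p = 0.0788). At 25% it fell by 0.38 on day 6 and by 0.46 on day 9 (adjusted p = 0.0304 and 0.00234), the second with -0.53 and adjusted p = 0.0547 once those were left out. At 12.5% on day 9 it fell by 0.31 (adjusted p = 0.0351). The day 6 call at 25% ended without any 1 of its 5 libraries (adjusted p = 0.0607 to 0.245), and the day 9 call at 12.5% without 12.5% replicate 2 or any 100% library (0.0767 to 0.188). EIF2A, a factor of alternative initiation, was lower at 25% on day 9, with 864, 861 and 882 normalized counts against 1119, 1179 and 1139.7 at 100% (log2 change -0.40 ± 0.10 SE, adjusted p = 0.00626). Once the keratin-high libraries were left out it was -0.41 with adjusted p = 0.126.

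The 5 EIF2B genes encode the subunits of eIF2B, the exchange factor that reloads eIF2 with GTP. At 25% they moved in both directions, with 2 called higher and 1 lower on each day (60.0% each, background 13.7% on day 6 and 18.2% on day 9). Without histidine, and at 12.5% on both days, 2 were called lower and no EIF2B gene was called higher. Those are 40.0% each, against 29.8% without histidine, 27.0% at 12.5% on day 6 and 20.8% at 12.5% on day 9 of all genes. EIF2B1, the alpha subunit, which takes part in sensing phosphorylated eIF2, had 1168, 1259.7 and 1238 normalized counts without histidine, 1090.4, 955 and 1157 at 12.5%, 959.6 and 887 at 25%, 1484, 1683 and 1499 at 50% and 1578, 1419 and 1405 at 100% on day 6. At day 9 EIF2B1 had 1039.5, 1061 and 1066 at 12.5%, 981, 965 and 1002 at 25%, 1594 and 1713 at 50% and 1471, 1735 and 1794 at 100%. Every library at 25% or less was below all at 50% and 100% of its day, and the 25% libraries of each day were lowest except that 12.5% replicate 2 of day 6 fell between them.

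The log2 change of EIF2B1 was -0.26 ± 0.09 without histidine, -0.46 ± 0.09 at 12.5% and -0.67 ± 0.10 at 25% on day 6 (SE, adjusted p = 0.0251, 0.000365 and 5.2e-05). On day 9 it was -0.65 at 12.5% and -0.76 at 25% (adjusted p = 9.96e-06 and 1.7e-06). The call without histidine ended when no-histidine replicate 1 or 100% replicate 1 was left out (adjusted p = 0.0889 and 0.126). It also ended with no filter on low values, upper-quartile scaling or quantile normalization. Without the keratin-high libraries the calls at none and 12.5% on day 6 ended (-0.20 and -0.40). The tests of none against 12.5% and of 12.5% against 25% did not call EIF2B1.

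EIF2B5 encodes the catalytic epsilon subunit. It had 327, 548 and 528 normalized counts without histidine and 503, 425 and 500.0 at 12.5%, against 892, 624 and 776 at 100% on day 6. At day 9 EIF2B5 had 569.7, 442 and 562 at 12.5% against 848, 1059 and 831 at 100%. The log2 changes were -0.73 ± 0.18, -0.67 ± 0.18 and -0.80 ± 0.18 (SE, adjusted p = 0.00351, 0.00804 and 0.00266). The 12.5% call of day 6 ended without 100% replicate 1 (-0.55, adjusted p = 0.0544). Once the keratin-high libraries were left out, neither day 6 call of EIF2B5 held (-0.77 and -0.71, adjusted p = 0.054 and 0.0866).

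EIF2B2 and EIF2B4 ran the opposite way at 25%. EIF2B2, the beta subunit, had 275 and 342 normalized counts at 25% on day 6 against 228, 178 and 185 at 100%, and 334, 348 and 343 at 25% on day 9 against 213, 254 and 199. It rose by 0.65 ± 0.19 and 0.63 ± 0.17 on the log2 scale (SE, adjusted p = 0.0232 and 0.0107). EIF2B4, the delta subunit, rose by 0.45 and 0.38 (adjusted p = 0.0284 and 0.0356). All 4 calls depended on single libraries. For EIF2B2 they were 25% replicate 3 or 100% replicate 2 or 3 on day 6 (adjusted p = 0.0686 to 0.264) and 100% replicate 3 on day 9 (0.0585). For EIF2B4 they were either 25% library or 100% replicate 2 or 3 on day 6 (0.0737 to 0.235), and any library but 25% replicate 2 on day 9 (0.0713 to 0.125). Once the keratin-high libraries were left out, both EIF2B2 calls ended (log2 change 0.725 on day 6 and 0.65 on day 9). The day 9 call of EIF2B4 ended then as well (0.29). EIF2B3, the gamma subunit, was not called against 100% at 25% on day 6 or day 9 (adjusted p = 0.0528 and 0.994). It was called between 12.5% and 25% on day 6, where it was lower at 12.5% (-0.71, adjusted p = 0.0244, ended without 12.5% replicate 1 or either 25% library, adjusted p = 0.0822 to 0.166).

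**Figure D2:**
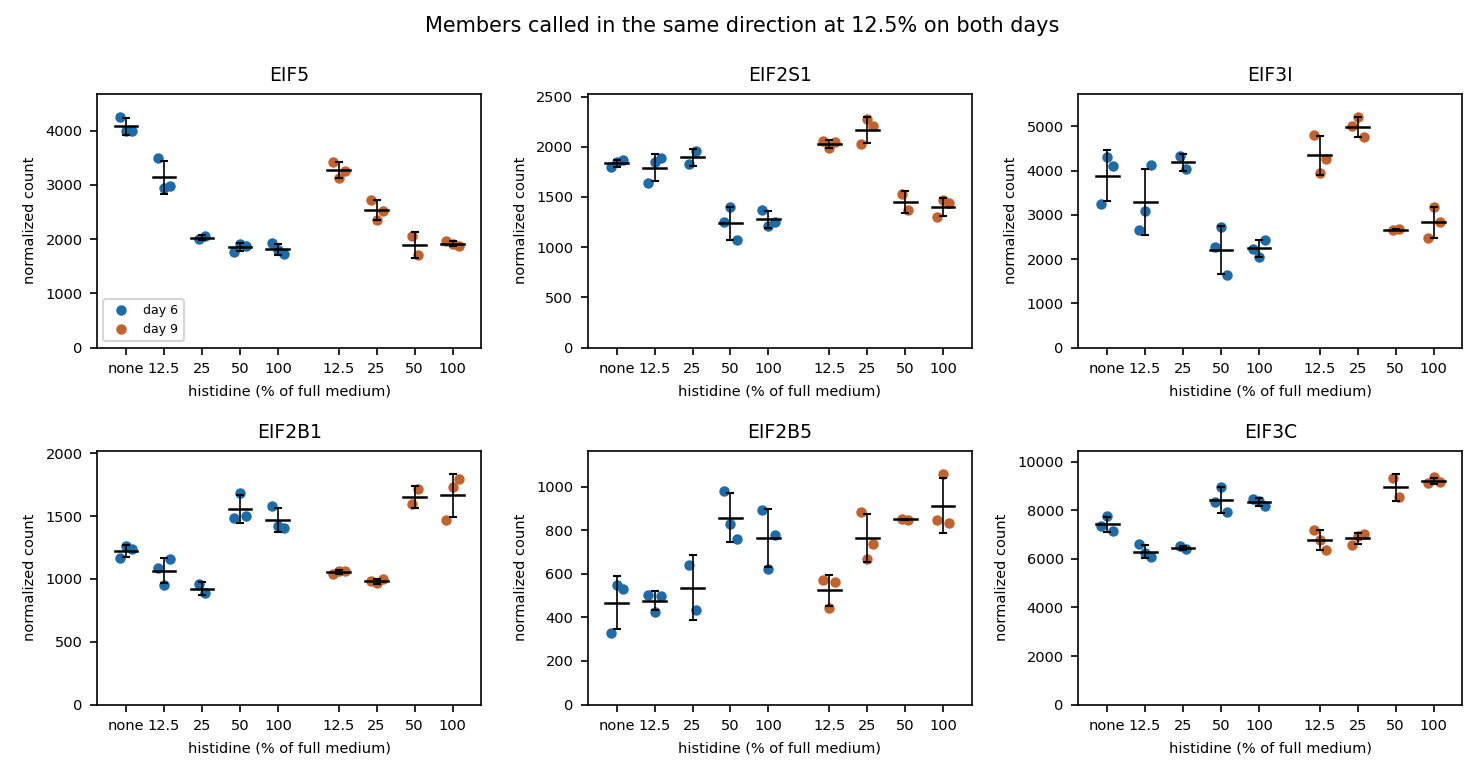
Normalized counts of EIF5, EIF2S1, EIF3I, EIF2B1, EIF2B5 and EIF3C in each library (points, blue for day 6 and orange for day 9) by histidine level in % of full medium, with the group mean (wide bar) and SD (thin bar) from 2 or 3 libraries. EIF5 is graded on day 6, with 3987 to 4258 normalized counts without histidine and 1720.2 to 1919.7 at 100%, while EIF2S1 at 25% or less lies above its 50% and 100% libraries.

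The 14 tested EIF3 genes encode the subunits of eIF3, the large scaffold on the small ribosomal subunit, with EIF3CL a near-identical copy of EIF3C. Without histidine 1 of them changed (EIF3I, higher), which is 7.14% against 29.8% of all genes. At 12.5% on day 6, 1 rose and 4 fell (35.7%, background 27.0%), and at 25% 1 rose and 3 fell (28.6%, background 13.7%). On day 9, 1 rose and 2 fell at 12.5% (21.4%, background 20.8%), and 1 rose and 5 fell at 25% (42.9%, background 18.2%). In the fit that omits the keratin-high libraries, 1 rose without histidine, 1 fell at 12.5% on day 6 and 1 rose and 1 fell at 25%. Day 9 then had 1 rise and 2 falls at 12.5% and 1 rise and 3 falls at 25%. The subunit that rose was EIF3I in each of the comparisons with all libraries.

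EIF3I, a propeller-shaped subunit that docks beside EIF3B and EIF3G, had 3243, 4312 and 4114 normalized counts without histidine, 2658, 3088 and 4124 at 12.5%, 4322 and 4049 at 25%, 2269.6, 2716 and 1637 at 50% and 2236, 2050.2 and 2443 at 100% on day 6. At day 9 EIF3I had 4815, 3953 and 4266 at 12.5%, 5002, 5219 and 4767 at 25%, 2656 and 2669.8 at 50% and 2474, 3176 and 2842 at 100%. All libraries at 25% or less exceeded all at 100% of their day. The log2 changes on day 6 were 0.79, 0.53 and 0.90 from none to 25% (SE 0.156, 0.156 and 0.174; adjusted p = 0.00038, 0.013 and 0.000935), and on day 9 0.62 and 0.83 (adjusted p = 0.00555 and 0.000479). The 12.5% call of day 6 ended without 12.5% replicate 3 or 100% replicate 2 (0.36 to 0.47, adjusted p = 0.0581 to 0.0975) and without the keratin-high libraries (0.40, adjusted p = 0.215).

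EIF3C, a core subunit, had 6597, 6232 and 6076 normalized counts at 12.5% and 6514 and 6393 at 25% on day 6, against 8477, 8372 and 8179.9 at 100%. The no-histidine libraries, at 7359.8, 7765 and 7145, lay between. On day 9 it had 7193, 6764 and 6389 at 12.5% and 6583, 6944 and 7019.8 at 25%, against 9129, 9371 and 9164 at 100%. The groups did not overlap. The log2 changes were -0.41 and -0.37 on day 6 and -0.44 and -0.43 on day 9 (adjusted p = 0.00011, 0.00174, 5.06e-05 and 8.19e-05), and the call at 25% on day 6 was lost without the keratin-high libraries (-0.34, adjusted p = 0.094). Without histidine EIF3C was higher than at 12.5% by 0.24 (adjusted p = 0.0204, ended without no-histidine replicate 2 or 12.5% replicate 2 or 3). Because EIF3CL can share its reads, the level of each is uncertain. EIF3CL was at 28.7 and 21.2 normalized counts at 25% on day 6 against 137, 104 and 109 at 100% (log2 change -2.19 ± 0.48 SE, adjusted p = 0.00316, ended without 25% replicate 3 with adjusted p = 0.059).

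EIF3B, the RNA-binding core subunit, fell at 25% and not without histidine. On day 6 it had 5205, 5935 and 5487 normalized counts without histidine, 4086, 4027 and 4389.9 at 12.5%, 3387 and 3199 at 25% and 4809, 4755 and 4773 at 100%. The 2 libraries at 25% were the lowest and the 3 without histidine the highest of these. The log2 change at 25% was -0.54 ± 0.10 on day 6 and -0.40 ± 0.09 on day 9 (SE, adjusted p = 0.000495 and 0.00182). None against 12.5% gave 0.41 ± 0.09 (SE, adjusted p = 0.00206). EIF3H fell at 12.5% on both days by 0.45 and 0.47 (adjusted p = 0.00384 and 0.00336). Its day 6 value was -0.45 with adjusted p = 0.0757 once the keratin-high libraries were left out. At 25% on day 9 EIF3H fell by 0.34 (adjusted p = 0.0349), and leaving out any library but 25% replicate 3 ended that call.

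The other EIF3 calls were less firm. EIF3D, which can bind the cap itself, fell by 0.36 at 12.5% on day 6 and by 0.38 at 25% on day 9 (adjusted p = 0.011 and 0.00982), calls that ended without 12.5% replicate 1 or 100% replicate 1 (adjusted p = 0.0781 and 0.053). EIF3F fell at 12.5% on day 6 with overlapping groups (-0.31, adjusted p = 0.0427, ended by leaving out any of the 6 libraries other than 12.5% replicate 3). The EIF3F call also ended with no filter on low values, upper-quartile scaling, quantile normalization, no mean-variance trend or only the compared groups. So it did without the keratin-high libraries. EIF3L fell at 25% on day 9 (-1.31 ± 0.42 SE, adjusted p = 0.032, ended without any library other than 25% replicate 3). EIF3L varied widely within groups, from 189.7 to 854 normalized counts at 50% on day 6. EIF3K was higher without histidine than at 12.5%, with overlapping groups (0.54, adjusted p = 0.0292, ended without no-histidine replicate 2 or 3 or 12.5% replicate 1 or 2). EIF3M was lower at 12.5% than at 25% on day 6 (-0.47, adjusted p = 0.0308, ended without 12.5% replicate 1 or 2 or either 25% library). EIF3A, EIF3E, EIF3G and EIF3J were called in none of the comparisons of histidine levels.

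The EIF4 genes encode the cap-binding factor (EIF4E), the scaffolds (EIF4G genes), the helicases (EIF4A genes) and their helpers EIF4B and EIF4H. Without histidine 3 of 12 tested rose and 2 fell (41.7%, against 29.8% of all genes), at 12.5% on day 6 2 rose and 2 fell (33.3%, background 27.0%), and at 25% on day 6 1 rose and 1 fell (16.7%, background 13.7%). On day 9 1 rose and 1 fell at 12.5% (16.7%, background 20.8%), and 1 fell at 25% (8.33%, background 18.2%). After omission of the keratin-high libraries, 3 rose and 1 fell without histidine and 2 rose at 12.5% on day 6. EIF4 genes then had 1 rise and 1 fall at 12.5% on day 9 and 0 calls at 25% on either day. The central members EIF4E, EIF4G1 and EIF4A1 were called in no comparison, nor were EIF4B and EIF4E2. EIF4E had 1084, 1556 and 1338 normalized counts without histidine against 1670.0, 1340.1 and 1619 at 100% on day 6 (log2 change -0.23 ± 0.16 SE, adjusted p = 0.305). EIF4G1 had 8738, 9131 and 8176 without histidine against 8251, 8177 and 7403 (0.13 ± 0.09 SE, adjusted p = 0.311). EIF4A1 had 7074, 8851 and 9502 without histidine against 6972, 6895 and 7351 (0.25 ± 0.14 SE, adjusted p = 0.21), and a readthrough transcript with SENP3 can share its reads.

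The scaffolds that work beside EIF4G1 rose. EIF4G2 (DAP5, which lacks the site for EIF4E and serves cap-independent initiation) had 19503, 20981 and 18929 normalized counts without histidine, 19229, 18979 and 19926 at 12.5%, 14971 and 13787 at 25%, 15522, 16507 and 12961 at 50% and 14920.1, 14659 and 13761 at 100% on day 6. The libraries without histidine and at 12.5% stood above all others of the day. The log2 change was 0.45 ± 0.09 without histidine and 0.42 ± 0.09 at 12.5% (SE, adjusted p = 0.000241 and 0.000711), and 12.5% was higher than 25% by 0.43 (adjusted p = 0.00329, ended without 25% replicate 3 with adjusted p = 0.063). On day 9 the 12.5% change was 0.13 and was not called, and the difference between days was not called either.

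EIF4G3, a paralogue of EIF4G1, had 2409, 2004 and 1976 normalized counts without histidine and 2319, 2105 and 1925 at 12.5%, against 1574, 1364 and 1289 at 100% on day 6. It rose by 0.59 ± 0.11 in each (SE, adjusted p = 0.000176 and 0.000307) and by 0.38 at 12.5% on day 9 (adjusted p = 0.0148, ended without 12.5% replicate 2 or 100% replicate 1 or 3). At 25% on day 6, with 1436 and 1461, it overlapped the controls, and 12.5% was higher than 25% by 0.54 ± 0.12 (SE, adjusted p = 0.00357). EIF4H fell by 0.38 without histidine and by 0.31 at 12.5% on day 6 (adjusted p = 0.0035 and 0.0194). The second ended without 12.5% replicate 1 or 100% replicate 1 (adjusted p = 0.0811 to 0.126), and neither held without the keratin-high libraries (-0.32 and -0.25, adjusted p = 0.112 and 0.252).

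The helicases EIF4A2 and EIF4A3 differed between the 2 most restricted levels. EIF4A2 had 1113, 1515 and 1646 normalized counts without histidine, 548, 569.7 and 1000.4 at 12.5%, 1063 and 889.7 at 25%, 592, 578 and 456 at 50% and 881, 596 and 662 at 100% on day 6. The no-histidine libraries were above all others of the day. It rose without histidine by 1.00 ± 0.19 against 100% and by 1.05 ± 0.19 against 12.5% (SE, adjusted p = 0.000258 and 0.000454). Against 12.5%, 8 members changed, 6 higher and 2 lower, where 15.3% of all genes did (7.0% higher and 8.26% lower).

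EIF4A2 also differed between days in full medium, with 1189, 1528 and 1505 normalized counts on day 9 against 881, 596 and 662 on day 6 (log2 change 0.99 ± 0.19 SE, adjusted p = 0.00553). That call ended without 100% replicate 2 of day 6 (0.87, adjusted p = 0.0504) and on leaving out the keratin-high libraries (1.08, adjusted p = 0.162). It and EIF2AK2 were the 2 members that differed between days at 100%, where 2.17% of all genes did (1.1% higher and 1.07% lower).

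EIF4A3 is a helicase of the exon junction complex, named with the initiation factors for its sequence. It had 1696, 2009 and 1923 normalized counts without histidine, 2074, 2381 and 3022 at 12.5%, 4064 and 4186 at 25%, 2914, 2995 and 2569 at 50% and 2658, 2857 and 2819 at 100% on day 6. The lowest group was without histidine and the highest at 25%, with the controls between. Against 100% it fell by 0.57 ± 0.11 without histidine and rose by 0.57 ± 0.13 at 25% (SE, adjusted p = 0.000394 and 0.00307), and 12.5% was lower than 25% by -0.74 ± 0.13 (SE, adjusted p = 0.000328). Without the keratin-high libraries the rise at 25% was 0.55 with adjusted p = 0.105. None was lower than 12.5% by -0.40 (adjusted p = 0.0187), a call that ended without no-histidine replicate 1 or 12.5% replicate 3 (adjusted p = 0.073 to 0.128). On day 9 EIF4A3 was not called.

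Of the remaining EIF4 genes, EIF4E3, a weak cap binder, had 51.6, 38.6 and 63.2 normalized counts at 12.5% on day 6 against 104, 79.6 and 71.2 at 100% (log2 change -0.73 ± 0.27 SE, adjusted p = 0.0472). Leaving out replicate 1 or 2 of either group ended the call (adjusted p = 0.0782 to 0.207). So did no filter on low values, upper-quartile scaling, no mean-variance trend, only the compared groups or leaving out the keratin-high libraries. EIF4ENIF1 (4E-T, which carries eIF4E into the nucleus and to sites of mRNA decay) fell at 25% on both days, by 0.38 and 0.35, and at 12.5% on day 9, by 0.29 (adjusted p = 0.0184, 0.011 and 0.033). These ended without 25% replicate 2 or 3 or 100% replicate 1 on day 6, without 25% replicate 3 or 100% replicate 1 on day 9, and at 12.5% without any library other than 12.5% replicate 2. Without the keratin-high libraries both 25% calls ended (-0.29 on day 6 and -0.16 on day 9). The 12.5% call also ended with no filter on low values, upper-quartile scaling, quantile normalization or only the compared groups.

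**Figure D3:**
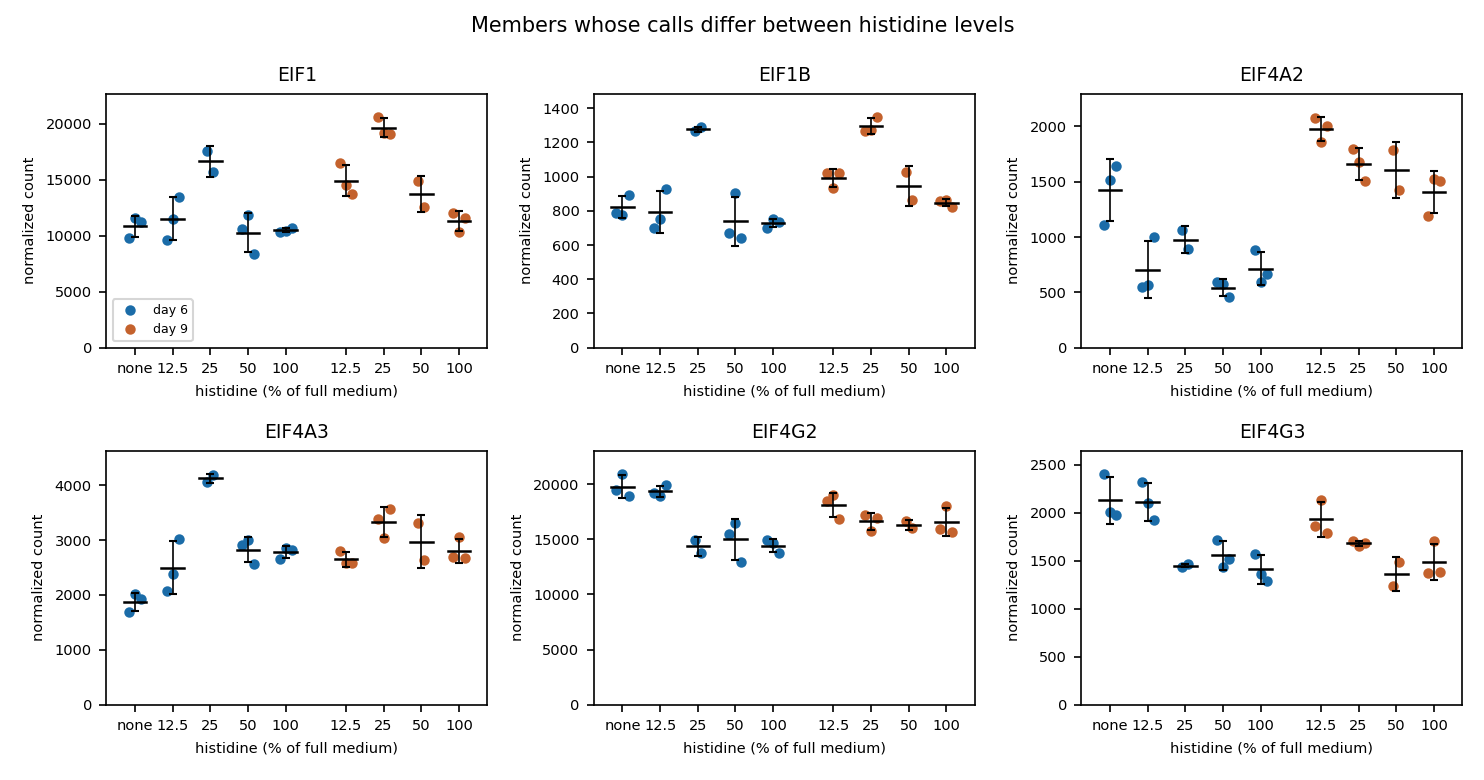
Normalized counts of EIF1, EIF1B, EIF4A2, EIF4A3, EIF4G2 and EIF4G3 in each library (points, blue for day 6 and orange for day 9) by histidine level in % of full medium, with the group mean (wide bar) and SD (thin bar). EIF1 and EIF1B peak at 25% on both days, EIF4A3 at 25% on day 6, and EIF4A2 is at 1113 to 1646 without histidine, above the other day 6 libraries.

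EIF5 had the largest rise of the tested members without histidine and the lowest adjusted p at that level and, on both days, at 12.5%. It encodes the protein that makes eIF2 hydrolyse its GTP at the start codon and then holds the spent eIF2. On day 6 it had 4258, 3991 and 3987 normalized counts without histidine, 3495, 2944 and 2972 at 12.5%, 1994 and 2059.7 at 25%, 1769.6, 1905 and 1871 at 50% and 1919.7, 1801 and 1720.2 at 100%. At day 9 EIF5 had 3424, 3129.6 and 3261 at 12.5%, 2729, 2361 and 2526 at 25%, 2062 and 1715 at 50% and 1959.7, 1918 and 1865 at 100%. The levels were graded, with no overlap between none and 12.5% or between 12.5% and 25% on day 6, and none between 12.5% and 25% or between 25% and 50% on day 9.

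EIF5 was 2.25-fold higher without histidine than at 100% (log2 change 1.17 ± 0.08 SE, adjusted p = 1.59e-10) and 1.73-fold higher at 12.5% (0.79 ± 0.08 SE, adjusted p = 3.13e-07). At 25% on day 6 the change was 0.16 ± 0.09 and was not called (adjusted p = 0.293). On day 9 it rose by 0.77 ± 0.08 at 12.5% and by 0.40 ± 0.08 at 25% (SE, adjusted p = 5.15e-07 and 0.0011). The difference of the 25% change between days was 0.24 (adjusted p = 0.949). None exceeded 12.5% by 0.38 (adjusted p = 0.00248), and 12.5% exceeded 25% by 0.63 on day 6 and 0.37 on day 9 (adjusted p = 8.75e-05 and 0.00743). The last of these ended without 25% replicate 2 (adjusted p = 0.0533). On leaving out the keratin-high libraries it ended as well (0.47), and so did the day 9 call at 25% against 100% (0.30).

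EIF5A, a hypusine-bearing factor that acts mainly in elongation, and EIF5B, the GTPase of subunit joining, were lower where they were called. EIF5A had 5438, 6581 and 8129 normalized counts at 12.5% on day 6 against 10764, 9016 and 9805 at 100% (log2 change -0.57 ± 0.15 SE, adjusted p = 0.00737, ended without 12.5% replicate 1 with adjusted p = 0.0654). Left without the keratin-high libraries it was -0.57 with adjusted p = 0.0871. Its near copy EIF5AL1 lay between 4.12 and 22.9 normalized counts. EIF5B fell at 25% on both days by 0.37 (adjusted p = 0.0401 and 0.0154) and at 12.5% on day 9 by 0.30 (adjusted p = 0.0445). The day 6 call ended without either 25% library or 100% replicate 1 or 2 (adjusted p = 0.138 to 0.21). It also ended with no filter on low values, upper-quartile scaling, no mean-variance trend, the replicate number as a block or the keratin-high libraries left out. The log2 changes in those settings ran from -0.37 to -0.11. The day 9 call at 12.5% ended without replicate 1 or 3 at 12.5% or 2 or 3 at 100%. So it did with no filter, upper-quartile scaling, quantile normalization, no trend or the keratin-high libraries left out. The day 9 call at 25% ended without replicate 2 of either group and with the keratin-high libraries left out (-0.42). EIF6, which keeps free large subunits from joining, fell at 12.5% on day 6, with 929, 1134 and 1494 normalized counts against 1576, 1465 and 1755 at 100% (-0.45 ± 0.17 SE, adjusted p = 0.0463). Those groups overlap, and the call ended without any of their libraries other than 12.5% replicate 3. So it did with no filter on low values, upper-quartile scaling, quantile normalization, no mean-variance trend, the replicate block or only the compared groups. Leaving out the keratin-high libraries ended it too.

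The kinases that phosphorylate eIF2 alpha were described apart. EIF2AK4 encodes GCN2, the amino acid sensor. It had 809.6, 709.9 and 634 normalized counts without histidine, 651, 605 and 572 at 12.5%, 509 and 454 at 25%, 546, 582 and 604 at 50% and 513, 555 and 565 at 100% on day 6. The 3 no-histidine libraries lay above the controls, and those at 25% below. The log2 change without histidine was 0.39 ± 0.11 (SE, adjusted p = 0.00876), and at 12.5% and 25% it was 0.16 and -0.18 (adjusted p = 0.307 and 0.415). The rise ended without no-histidine replicate 1 (0.30, adjusted p = 0.0643), the library whose title and time label give different days, and without the keratin-high libraries (0.34, adjusted p = 0.164). On day 9 EIF2AK4 was not called at any level.

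EIF2AK2 encodes PKR, the kinase of the double-stranded RNA response. On day 6 it had 1244, 1519 and 1319.6 normalized counts without histidine, 1749, 1367 and 1369.9 at 12.5%, 1723 and 1486 at 25%, 1334, 1404 and 1093 at 50% and 814, 982 and 812 at 100%. All libraries at lower histidine stood above the 100% libraries. It rose by 0.65 ± 0.17, 0.78 ± 0.17 and 0.89 ± 0.18 from none to 25% (SE, adjusted p = 0.00411, 0.00108 and 0.0019). With the keratin-high libraries left out the first was 0.74 with adjusted p = 0.0547. On day 9 its libraries overlapped, with 1258, 1564 and 1416 at 12.5%, 1674, 1527 and 1502 at 25%, 1009 and 1929 at 50% and 1221, 1449 and 1492 at 100%, and it was not called.

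The 100% libraries of EIF2AK2 were themselves higher on day 9 than on day 6, by 0.67 ± 0.17 (SE, adjusted p = 0.0319), a call that ended without any of those 6 libraries other than 100% replicate 1 of day 9 (adjusted p = 0.0504 to 0.124). The difference of the 12.5% change between days was -0.75 ± 0.23 (SE, adjusted p = 0.251), the lowest adjusted p of the members in that test. EIF2AK1, the haem-regulated kinase, fell by 0.25 without histidine and by 0.20 at 12.5% and at 25% on day 9 (adjusted p = 0.00579, 0.0366 and 0.0394). The first ended without no-histidine replicate 3 (adjusted p = 0.0533) or the keratin-high libraries (-0.22, adjusted p = 0.162), the second without any of its libraries and the third without any but 25% replicate 3.

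Of the eIF4E-binding proteins, which compete with eIF4G for eIF4E, EIF4EBP1 had 2739, 3770.1 and 3988 normalized counts without histidine, 1933, 2351 and 2914 at 12.5%, 3409 and 3475 at 25%, 3838, 5287 and 3043 at 50% and 4367, 4109 and 4389 at 100% on day 6. The 12.5% group was lowest on average, and its highest library overlapped the no-histidine group. EIF4EBP1 fell there by 0.86 ± 0.16 on the log2 scale (SE, adjusted p = 0.000326) and was not called against 100% without histidine (-0.31, adjusted p = 0.155), at 25% (-0.32, adjusted p = 0.287) or on day 9 (-0.33 at 12.5%, adjusted p = 0.155). None exceeded 12.5% by 0.55 with overlapping groups (adjusted p = 0.0227), and 12.5% was below 25% by -0.54 (adjusted p = 0.0396). Leaving out replicate 2 or 3 without histidine or replicate 1 or 2 at 12.5% ended the first of these, and replicate 1 or 2 at 12.5% or either 25% library the second.

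EIF4EBP2 fell without histidine on day 6, with 3563, 4225 and 3915 normalized counts against 5335, 5234 and 5259.9 at 100% (log2 change -0.44 ± 0.09 SE, adjusted p = 0.000319). It had 4262, 4476 and 4944 at 12.5% and 5383 and 5196 at 25%, and these were not called. EIF4EBP3, the scarcest of the 3 in these libraries in normalized counts, had 96.9, 91.3 and 112 without histidine against 45.1, 45.8 and 81.4 at 100% (0.84 ± 0.23 SE, adjusted p = 0.00825). It rose at 12.5% by 0.69 (adjusted p = 0.0319), with overlapping groups. The first call ended without 100% replicate 1 (adjusted p = 0.0531), the second without replicate 2 or 3 at 12.5% or 1 or 2 at 100%, and neither held without the keratin-high libraries (0.29 and 0.14). A readthrough transcript with ANKHD1 can share its reads.

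**Figure D4:**
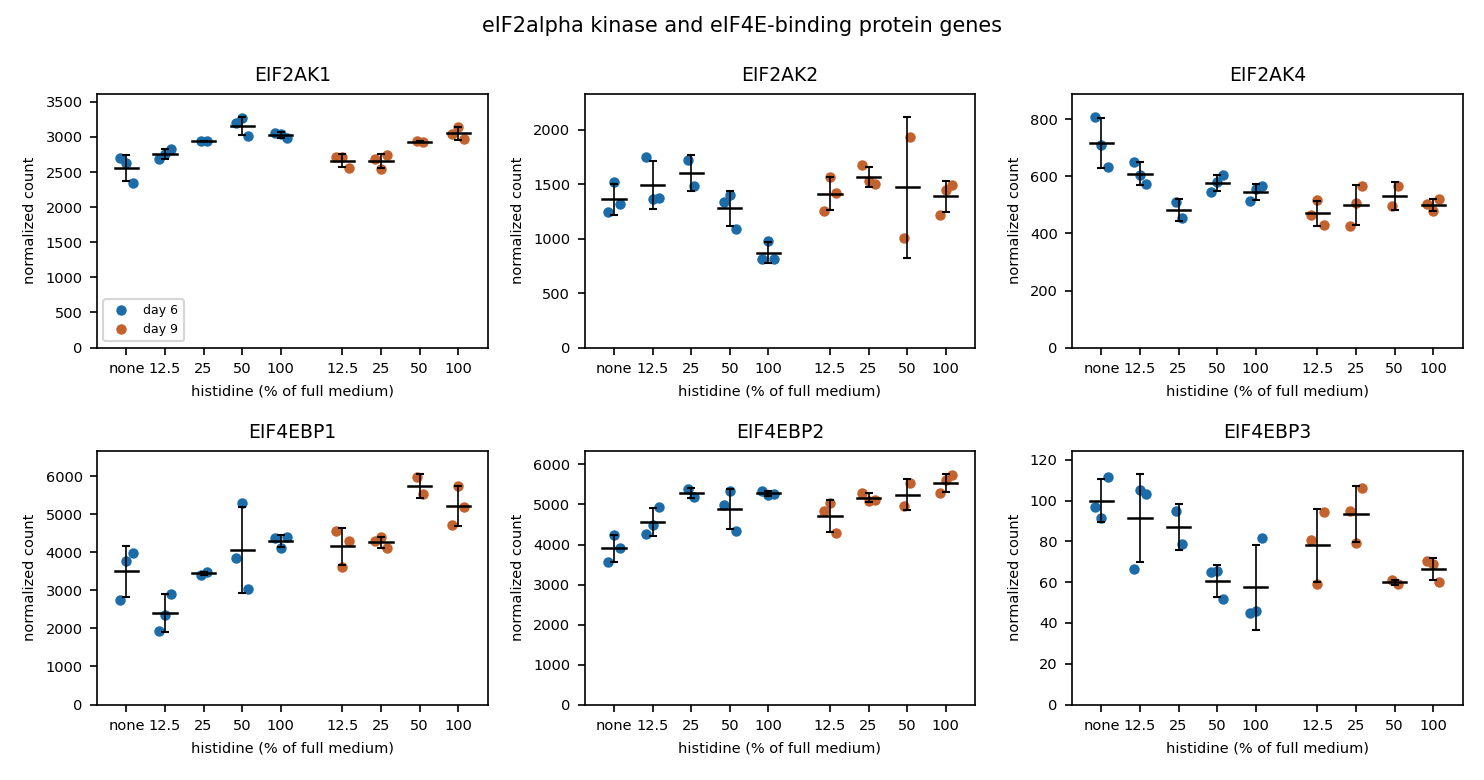
Normalized counts of the eIF2 kinase genes EIF2AK1, EIF2AK2 and EIF2AK4 and of EIF4EBP1, EIF4EBP2 and EIF4EBP3 in each library (points, blue for day 6 and orange for day 9) by histidine level in % of full medium, with the group mean (wide bar) and SD (thin bar). EIF2AK2 at 100% lies at 812 to 982 on day 6, below all other libraries, and EIF4EBP1 has its lowest mean at 12.5% on day 6.

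Genes that act on or beside the initiation factors were counted in 7 lists, to be read against the shares of all tested genes called, 29.8%, 27.0% and 13.7% from none to 25% on day 6 and 20.8% and 18.2% at 12.5% and 25% on day 9. Counts without the keratin-high libraries have the smaller all-gene shares of that fit, given earlier, as their background. Of 8 tested partners of the eIF2 kinases and phosphatase, 1 rose and 2 fell without histidine (37.5%), 2 rose and 2 fell at 12.5% on day 6 (50.0%), and 1 rose and 1 fell at 25% and at both levels of day 9 (25.0% each). Once the keratin-high libraries were left out, the rises and falls numbered 1 and 2, 1 and 0, and 0 and 0 on day 6, then 1 and 1 at 12.5% and 1 and 0 at 25% on day 9. PPP1R15A (GADD34), which brings phosphatase to eIF2 alpha, had 1709, 1609 and 1508 normalized counts without histidine against 981, 861 and 861 at 100% on day 6. It rose by 0.84 ± 0.11 (SE, adjusted p = 2.8e-06), and on day 9 by 0.65 at 12.5% and 0.73 at 25% (adjusted p = 0.000173 and 4.85e-05). The 100% libraries of PPP1R15A were themselves lower on day 9 than on day 6. It was the 1 gene of this list called between those groups, where 2.17% of all genes were called. That call ended without the keratin-high libraries (-0.735). The day 9 rises are thus measured from lower controls than those of day 6. On day 6 the rises at 12.5% and 25%, 0.33 and 0.38, were called (adjusted p = 0.0298 and 0.0394) but ended without replicate 2 or 3 at 100%, replicate 1 or 2 at 12.5% or either 25% library. The phosphatase catalytic subunit PPP1CC fell by 0.51 without histidine, by 0.40 at 12.5% on day 6 and by 0.34 at 12.5% on day 9 (adjusted p = 0.000196, 0.00258 and 0.0108), and PPP1CB fell by 0.53 without histidine (adjusted p = 0.00297). Once the keratin-high libraries were left out, the day 6 fall of PPP1CC at 12.5% had adjusted p = 0.0698.

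Of 30 tested genes in the list of ATF4 and its targets, the transcriptional output of eIF2 phosphorylation, 4 rose and 8 fell without histidine (40.0%), 3 rose and 9 fell at 12.5% on day 6 (40.0%) and 5 rose and 4 fell at 25% (30.0%). On day 9, 4 rose and 5 fell at 12.5% (30.0%) and 6 rose and 5 fell at 25% (36.7%). In the fit that omits the keratin-high libraries, 29 genes were tested, of which 4 rose and 4 fell without histidine, 3 rose and 5 fell at 12.5% on day 6, none rose and 3 fell at 25%, 4 rose and 4 fell at 12.5% on day 9 and 1 rose and 4 fell at 25%. ATF4 itself was called in none of these. TRIB3, a pseudokinase that restrains ATF4, fell by 0.70 without histidine, by 1.24 at 12.5% and by 1.01 at 25% on day 6 (adjusted p = 2.22e-05, 2.46e-08 and 4.38e-06). On day 9 TRIB3 fell by 0.33 at 12.5% and by 0.64 at 25% (adjusted p = 0.031 and 0.000157). The day 9 call at 12.5% ended without 12.5% replicate 2 or 3 or 100% replicate 1 or 3 (adjusted p = 0.0653 to 0.157). It also ended on leaving out the keratin-high libraries (0.051), none of which is in these 2 groups. The 100% libraries of TRIB3 were themselves lower on day 9 than on day 6. That call ended without any of those 6 libraries other than 100% replicate 1 of day 9 (-0.49 to -0.40, adjusted p = 0.0561 to 0.123). Its 12.5% change differed between the days by 0.91 ± 0.15 (SE, adjusted p = 0.0203), a call that ended without any 1 of 6 of those 12 libraries (0.0504 to 0.0997) and with the keratin-high libraries left out (0.96, adjusted p = 0.228). ATF5, whose protein is made under eIF2 phosphorylation, fell by 0.79 and 0.95 without histidine and at 12.5% on day 6 (adjusted p = 1.63e-08 and 6.38e-09). The cystine carrier SLC7A11 rose by 0.96 and 0.89 (adjusted p = 8.9e-07 and 7.18e-06).

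Of 16 mTORC1 and cap-kinase genes, 2 rose and 5 fell without histidine (43.8%), none rose and 6 fell at 12.5% on day 6 (37.5%), and none rose and 3 fell at 25% (18.8%). On day 9, 1 rose and 6 fell at 12.5% (43.8%) and none rose and 5 fell at 25% (31.2%). After omission of the keratin-high libraries, 15 genes were tested, of which 1 rose and 2 fell without histidine, 2 fell at 12.5% on day 6, 1 fell at 25%, 4 fell at 12.5% on day 9 and 2 fell at 25%. RPS6KB2, an S6 kinase that phosphorylates EIF4B, had 597, 696 and 729 normalized counts at 12.5% against 1263, 1230.1 and 1490.3 at 100% on day 6 (log2 change -0.98 ± 0.11 SE, adjusted p = 6.2e-07), and fell by 0.82 at 12.5% on day 9 (adjusted p = 8.33e-06). TSC2, an mTORC1 inhibitor, fell by 0.79 at 12.5% on day 6 (adjusted p = 0.000113). RPS6KA1 fell at 12.5% on day 9 by 0.90 (adjusted p = 3.12e-05).

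Among 21 partners of cap, poly(A) tail and scanning, 3 rose and 4 fell without histidine (33.3%), 4 rose and 2 fell at 12.5% on day 6 (28.6%) and 6 rose and 4 fell at 25% (47.6%). On day 9, 4 rose and 5 fell at 12.5% (42.9%) and 7 rose and 6 fell at 25% (61.9%). With the keratin-high libraries left out, 3 rose and 1 fell in each comparison of day 6, 4 rose and 4 fell at 12.5% on day 9 and 2 rose and 3 fell at 25%. PDCD4, which holds the EIF4A helicases inactive, had 1847, 1986 and 2124 normalized counts at 12.5% against 1337, 1114 and 1079 at 100% on day 6. It rose by 0.76 ± 0.09 there, by 0.55 without histidine and by 0.72 at 12.5% on day 9 (adjusted p = 1.09e-06, 2.95e-05 and 2.69e-06). CYFIP2, of a family that binds eIF4E, fell by 0.80, 0.77 and 0.81 without histidine, at 12.5% on day 6 and at 12.5% on day 9 (adjusted p = 1.66e-07, 9.28e-07 and 5.15e-07). NCBP2, of the nuclear cap-binding complex, rose by 0.70, 0.48 and 0.47 in the same comparisons (adjusted p = 9.78e-07, 0.000196 and 0.000345).

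Of 9 start-codon and recycling partners, 2 rose and 1 fell without histidine (33.3%), none rose and 3 fell at 12.5% on day 6 (33.3%) and 1 rose at 25% (11.1%). On day 9, 1 rose and 2 fell at 12.5% and 2 rose and 1 fell at 25% (33.3% each). Once the keratin-high libraries were left out, 1 rose without histidine, 1 fell at 12.5% on day 6, none changed at 25%, 1 rose and 2 fell at 12.5% on day 9 and 1 rose at 25%. The recycling factor ABCE1 rose by 0.49 without histidine (adjusted p = 0.000861), and MCTS1, a reinitiation factor that pairs with DENR, fell by 0.71 at 12.5% on day 6 (adjusted p = 0.0052). DENR fell there by 0.43 (adjusted p = 0.0252, ended without 12.5% replicate 1 or 100% replicate 1).

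Of 19 elongation and termination factors, 4 rose and 3 fell without histidine (36.8%), none rose and 4 fell at 12.5% on day 6 (21.1%) and 1 rose and 2 fell at 25% (15.8%). On day 9 none rose and 2 fell at 12.5% (10.5%) and 1 rose and 3 fell at 25% (21.1%). EEF1A2 is among the falls without histidine and at 12.5% on day 6. In the fit that omits the keratin-high libraries, 18 genes passed the filter, of which 1 rose and 1 fell without histidine, 1 fell at 12.5% on day 6, 1 rose at 25%, 2 fell at 12.5% on day 9 and 1 rose and 1 fell at 25%. DPH2, of the pathway that modifies a histidine of elongation factor 2, rose without histidine by 0.71 against 100% and by 0.81 against 12.5% (adjusted p = 0.00314 and 0.00247), the first with 0.70 and adjusted p = 0.0687 once the keratin-high libraries were left out. EEF1E1 fell at 12.5% on day 6 by 1.00 (adjusted p = 5.44e-05). EEF1A2 was listed at 0 in all but 5 libraries, which were among those high in keratin, and had 131 normalized counts in the highest. Of 9 mitochondrial initiation and elongation genes, 1 rose and 1 fell without histidine and at both levels of day 9, and none rose and 2 fell at 12.5% and at 25% on day 6 (22.2% each). After omission of the keratin-high libraries, 1 rose and 1 fell without histidine and at 12.5% on day 9, 1 fell at 12.5% on day 6 and at 25% on day 9, and none changed at 25% on day 6. MTIF2 fell by 0.72, 0.48 and 0.49 without histidine, at 12.5% on day 6 and at 12.5% on day 9 (adjusted p = 2.38e-06, 0.000457 and 0.000567). MTIF3 rose by 0.64 without histidine and by 0.58 at 12.5% on day 9 (adjusted p = 0.000808 and 0.00343), and TSFM fell by 0.55 at 12.5% on day 6 (adjusted p = 0.00222, and 0.0789 once the keratin-high libraries were left out).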

How the data were processed

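Total RNA of DND-41 cells was made into strand-specific libraries, per the labels' protocols. The authors deposited 1 signal value per gene and library, a normalized count. The submitters' processing notes name FastQC 0.11.9, kallisto 0.50.1, DESeq2 1.44.0 and GRCh38, and the gene models and the counting's strand option were not given in the sources used here. Whole reads were not recoverable, since only 37.8% to 76.1% of a library's values below 20 came within 0.05 of whole multiples. Reads of near-identical copies may be split between them, and a change in RNA per cell is not visible after such scaling.

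Log2 values, made after adding a pseudocount of 1 (this understates changes of low genes), entered limma 3.58.1 (R 4.3.3). The fit had 9 group means, 16 residual degrees of freedom and a trend of variance on mean. Tests were two-sided, with Benjamini-Hochberg adjustment in each comparison. Groups follow the titles. No-histidine replicate 1 has day 6 in its title and day 9 in its time label, and was kept at day 6. The days also differ between the series description and the sample labels. Full values were given for each EIF2AK and EIF4EBP gene, for EIF1, EIF2S1, EIF4E, EIF4G1, EIF4A1, EIF5 and EIF6, and for up to 4 members of a subfamily and 3 genes of a list with the largest called changes at none or 12.5% where the higher group averaged 50 or more. Other members called at 25% or between levels were named after their values were seen. Counts by subfamily and list without the keratin-high libraries, and the all-gene share called on both days, were also added then. Members and lists were chosen with earlier results of these data known. The level of 1 sex-linked member is not reported. Alternatives were another pseudocount, filter and scaling, no trend, library weights, a replicate block, only the compared groups, and leaving out each library or those high in keratin. The procedure was tested on simulated data. Plots came from matplotlib 3.10.9 (Python 3.11.15).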

Additional observations from a re-analysis of the deposited data

How the results depend on the processing

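No called change of a member turned its sign under any alternative run, and the number of members called at 50% stayed at 0 except with library weights, which called 1 on day 6. For day 9 against day 6 at 100%, 2 members were called, against 1 with upper-quartile scaling, 1 with quantile normalization, 1 with no mean-variance trend, 4 with library weights, 4 with only the compared groups and 0 without the libraries high in keratin. For none against 12.5% the 8 became 16 with quantile normalization, 20 with library weights and 3 with only the compared groups. For 12.5% against 25% on day 6 the 14 became 26 with library weights. On day 9 the 3 became 1 with no filter, 1 with no trend, 1 with the replicate block, 6 with quantile normalization, 6 with only the compared groups and 0 without the keratin-high libraries. Leaving those out also gave 8 for none against 100% (main 17), 9 for 12.5% on day 6 (21), 8 for 25% on day 6 (16) and 9 for 25% on day 9 (20), with fewer samples in the fit. The cause was not tested otherwise. Leaving out 1 library gave 16 to 18 members for none, 15 to 23 and 10 to 14 for 12.5% and 25% on day 6, 9 to 13 and 14 to 19 for 12.5% and 25% on day 9, 4 to 12 for none against 12.5%, 7 to 23 and 0 to 2 for 12.5% against 25% on days 6 and 9, 0 to 2 for day 9 against day 6, and 0 throughout for 50% and the differences between days. Same-numbered libraries showed no visible shared deviation: of 63 same-number pairs 0 had deviations correlated above 0.1 (median -0.00177). Pairs of different number were not compared, so this cannot tell whether same-numbered libraries came from parallel cultures. The replicate block changed 7 of 676 member values across their threshold, 6 lost and 1 gained. Replicates number 2 or 3 per group and read totals are unknown, which limits the precision.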
